A study of Mus musculus with 15 samples.

Results

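The transcripts of 10 genes that serve as readouts of amino acid stress through the transcription factor ATF4 were measured in melanoma lung metastases from mice on 4 diets that differed in methionine: Atf4, Asns, Trib3, Chac1, Ddit3, Sesn2, Atf3, Atf5, Cebpb and Cebpg. They were taken as a list of gene symbols, matched to Ensembl gene IDs. All 10 were found among the 37620 gene IDs of the files, and all 10 were among the 16001 genes with enough counts to be tested. The tumours came from B16-F10.1, a pigmented mouse melanoma line that colonises the lung from the blood. The hosts were C57BL/6J males, 8 weeks old, injected with 100000 cells in a tail vein and moved after 21 days to a test diet for 2 weeks. The labels name a methionine adequate diet (n = 3), a diet supplemented to 300% (n = 6), a diet restricted to 25% (n = 3) and a deficient diet at 0% (n = 3), which makes 15 libraries of total RNA from bulk metastases. Strain, sex, tumour line and tissue were the same in all of them. The design text does not mention the supplemented diet, which only the sample labels give. Nothing in the labels ties a library to its own mouse, so the p-values below reflect the spread among the samples as given, which may be technical.

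When an amino acid runs short, uncharged tRNA activates the kinase GCN2, which phosphorylates the translation factor eIF2alpha. Most translation slows, while the Atf4 mRNA is translated more, so ATF4 protein can rise with little change in its mRNA. ATF4 binds DNA as a partner of C/EBP proteins at sites called amino acid response elements. It raises genes for amino acid synthesis and uptake, among them Asns, and genes that feed back on the response, among them Trib3, Ddit3 and Atf3. The kinase PERK reaches the same factor from the endoplasmic reticulum, so these genes are shared by amino acid shortage and protein folding stress.

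The core of the amino acid response element was searched as TGATGNAA on both strands in RefSeq promoter windows of build GRCm38.p6, which run from 250 bases before to 50 after each annotated start. All 10 genes had a window, and 4 of them held a match, against 4.51% of all 27025 genes and 3.97% of all windows. The stretches around the 4 matches are shown because they mark which of the readouts carry the letters of the element close to the start, with the match in capitals and each read 5′ to 3′ on the gene's strand.
Asns: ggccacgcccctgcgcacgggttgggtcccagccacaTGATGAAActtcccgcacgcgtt
Chac1: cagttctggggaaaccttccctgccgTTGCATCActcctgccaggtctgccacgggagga
Atf3: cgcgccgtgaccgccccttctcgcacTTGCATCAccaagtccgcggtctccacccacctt
Trib3: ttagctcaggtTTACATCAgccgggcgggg
In Asns the match read TGATGAAA on the gene's strand, 23 bases before the start at its first base, in the stretch chr6:7693210-7693269 of the minus strand. In Chac1 and Atf3 it read TGATGCAA on the opposite strand, with its first base 193 and 110 bases before the start, in chr2:119351023-119351082 (plus strand) and chr1:191183410-191183469 (minus strand). In Trib3 it read TGATGTAA on the opposite strand and lay 15 bases after the start, within the transcribed part, in chr2:152344028-152344057 (minus strand). The windows of Atf4, Ddit3, Sesn2, Atf5, Cebpb and Cebpg did not hold these letters. The cyclic AMP response element TGACGTCA, searched in the same windows, was in 0 of the 10 and in 2.03% of all genes. A match describes the sequence and is no evidence of binding.

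Total counts ran from 13107679 to 29994264 per library. The melanocyte genes Tyr, Dct, Pmel and Tyrp1 were abundant in every library, with Tyr between 362 and 815 CPM, the unit used for levels throughout (counts per library size, scaled by TMM factors). Normal lung was present in unequal amounts: Sftpc, which encodes surfactant protein C, ran from 0.186 CPM in supplemented replicate 5 to 2159 CPM in deficient replicate 3. Of the 3 libraries that stand apart, deficient replicate 3 was the richest in lung and vessel markers, supplemented replicate 5 held skeletal muscle RNA (Acta1 at 846 CPM), and adequate replicate 1 had a TMM factor of 0.69 and the largest share of small structural RNA. In bulk tissue, fewer cells of a type and less RNA per cell cannot be told apart.

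Per length, Atf4 was the most abundant of the 10 in all 15 libraries, with a median of 117 TPM, the deposited unit that corrects for transcript length and allows genes to be compared within a library. Ddit3 and Asns came next at medians of 28.4 and 28.1 TPM, and their places overlapped, from place 2 to 4 for Ddit3 and from 2 to 5 for Asns. Atf5 followed at a median of 19.8 TPM, then Trib3, Cebpb, Chac1 and Atf3 at 13.7, 12, 8.6 and 6.44 TPM. Sesn2 and Cebpg were the lowest, at 5.34 and 4.37 TPM, and Cebpg was last in 10 of 15 libraries. The place of Chac1 ran from 6 to 10, and it was last in deficient replicate 2. TPM values were not compared between libraries, since small structural RNA took from 3.22% to 7.53% of the counts of a library.

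The diets were compared for the level of each transcript in the tumours. No gene of the 10 passed the test in any of 5 comparisons between diets, in either direction. Of all genes tested, edgeR passed 0.00625% for deficient against adequate and 0% in the other comparisons. With so few genes passing at all, the absence of the 10 says little about them in particular. Restricted against supplemented was not among the comparisons run. Atf4 itself stood at 411, 406 and 362 CPM in the adequate libraries and 379, 316 and 218 CPM in the deficient ones. It stood at 329.9, 570.4 and 321 CPM in the restricted libraries and ran from 242 through a median of 324 to 492 CPM in the supplemented. The groups overlapped, and the highest value of all, in restricted replicate 2, sat beside 2 restricted libraries below the adequate range. The log2 fold change of deficient against adequate was -0.37 (SE 0.28, 95% interval -0.96 to 0.23, adjusted p = 0.55 by edgeR). With 1 library left out it ran from -0.6 without deficient replicate 1 to -0.17 without deficient replicate 3.

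Among the genes that ATF4 raises for metabolism, Asns, asparagine synthetase, had 164, 110.3 and 109 CPM in adequate and 135, 233 and 53.1 CPM in deficient libraries. It had 100.4, 146 and 114 CPM in restricted libraries and ran from 71.3 through a median of 102 to 188 CPM in supplemented ones. The deficient group held both the highest and the lowest Asns value of the 15 libraries. The means were 128 ± 31.4 CPM (SD, n = 3) and 140.3 ± 89.95 CPM (SD, n = 3), and the log2 fold change was 0.14 (SE 0.419, 95% interval -0.76 to 1.03, adjusted p = 0.903 by edgeR).

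Chac1 encodes an enzyme that breaks down glutathione, whose cysteine can derive from methionine. Its values were 34, 38.3 and 28 CPM in adequate and 35.2, 11.3 and 13.3 CPM in deficient libraries. They were 25.1, 52.5 and 26.1 CPM in restricted libraries and ran from 19.1 through a median of 31.2 to 50.3 CPM in supplemented ones. A pair of deficient libraries, replicates 2 and 3, were the lowest of all 15, while replicate 1 lay within the adequate range. The log2 fold change was -0.74 (SE 0.423, 95% interval -1.64 to 0.16, adjusted p = 0.417 by edgeR) against adequate, -0.79 against restricted (SE 0.423, adjusted p = 0.714) and -0.71 against supplemented (SE 0.375, adjusted p = 0.87); these 3 comparisons share the deficient libraries. With 1 library left out the first of them ran from -1.49 without deficient replicate 1 (adjusted p = 0.154 by edgeR) to -0.46 without deficient replicate 2 (adjusted p = 0.606 by edgeR). The second ran from -1.49 without deficient replicate 1 to -0.36 without restricted replicate 2, and the third from -1.42 without deficient replicate 1 to -0.42 without deficient replicate 2.

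Sesn2 encodes sestrin 2, a leucine-binding restraint on the growth kinase mTORC1. It stood at 23.2, 41.1 and 38.9 CPM in adequate, 39.5, 52.8 and 32.6 CPM in restricted and 38.5, 40.1 and 26.7 CPM in deficient libraries. In the supplemented libraries it ran from 26.2 through a median of 37 to 50.2 CPM. The 4 diets overlapped, and the log2 fold change of deficient against adequate was 0.03 (SE 0.272, 95% interval -0.55 to 0.61, adjusted p = 0.971 by edgeR).

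A trio of genes act as feedback. Trib3 encodes a pseudokinase that binds ATF4 and restrains it, Ddit3 encodes CHOP, a C/EBP-like factor tied to cell death under lasting stress, and Atf3 encodes a bZIP repressor that is also an immediate early gene. Trib3 stood at 65.7, 50.3 and 54.5 CPM in adequate and 63.9, 62.3 and 18.1 CPM in deficient libraries, and at 46.4, 63.9 and 39.8 CPM in restricted ones. Supplemented libraries ran from 19 through a median of 36.5 to 83.4 CPM. The highest value of all was in supplemented replicate 1 and the lowest in deficient replicate 3, with supplemented replicate 3 close to it, and the means were 56.8 ± 7.93 CPM for adequate, 50.04 ± 12.4 CPM for restricted, 48.1 ± 26 CPM for deficient (SD, n = 3 each) and 42.7 ± 22.6 CPM for supplemented libraries (SD, n = 6). Its log2 fold change was -0.24 (SE 0.467, 95% interval -1.23 to 0.76, adjusted p = 0.841 by edgeR) for deficient and -0.41 (SE 0.399, 95% interval -1.26 to 0.44, adjusted p = 0.771 by edgeR) for supplemented against adequate.

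Ddit3 had 65.8, 54.6 and 44.5 CPM in adequate and 88.2, 47.8 and 22.8 CPM in deficient libraries. It had 41.1, 64.1 and 45 CPM in restricted libraries and ran from 29.7 through a median of 41.3 to 58.8 CPM in supplemented ones. As for Asns, the deficient group held its highest and its lowest value, here in replicates 1 and 3, and the log2 fold change was -0.05 (SE 0.368, 95% interval -0.83 to 0.73, adjusted p = 0.961 by edgeR). Atf3 had 39.2, 43 and 18.9 CPM in adequate, 28.8, 34.2 and 24.1 CPM in restricted and 30.2, 28.2 and 16.4 CPM in deficient libraries. It ran from 15.7 through a median of 25.6 to 39.4 CPM in supplemented libraries, the groups overlapped, and the log2 fold change of deficient against adequate was -0.43 (SE 0.347, 95% interval -1.17 to 0.31, adjusted p = 0.57 by edgeR), between -0.72 without adequate replicate 3 and -0.2 without deficient replicate 3.

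The remaining bZIP factors held the 3 unadjusted p-values under 0.05 among the members, and none passed adjustment. Atf5, a relative of Atf4 whose mRNA is also translated more under stress, stood at 75.5, 49.1 and 48.7 CPM in adequate and 128, 156 and 52.5 CPM in deficient libraries. It stood at 72.5, 106 and 82.1 CPM in restricted libraries and ran from 52.2 through a median of 84.7 to 129 CPM in supplemented ones. The other 3 diets had higher means than adequate, but in each of them at least 1 library lay at or below the highest adequate value. The log2 fold change of Atf5 was 0.96 (SE 0.385, 95% interval 0.14 to 1.78, adjusted p = 0.266 by edgeR) for deficient, 0.59 (SE 0.383) for restricted and 0.56 (SE 0.339) for supplemented against the same adequate libraries. The first of these was 0.65 without deficient replicate 2.

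Cebpg encodes C/EBP gamma, a partner of ATF4 on response elements. It had 27.5, 20.5 and 12 CPM in adequate and 27, 35.2 and 34.6 CPM in restricted libraries, which overlapped by 1 library on each side. Deficient libraries had 26.9, 34.4 and 20.7 CPM and supplemented ones ran from 20.9 through a median of 25.3 to 27.5 CPM. The log2 fold change of restricted against adequate was 0.69 (SE 0.258, 95% interval 0.14 to 1.24, adjusted p = 0.442 by edgeR). It was 0.43 without adequate replicate 3 and 0.97 without adequate replicate 1, the lowest and highest value with 1 library left out.

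Cebpb encodes C/EBP beta, a factor of myeloid cells and of inflammation as well as a partner of ATF4. It had 53.2, 53.4 and 40.5 CPM in deficient and 36, 29.6 and 25.8 CPM in restricted libraries, the one case among the 10 genes and 5 comparisons in which the libraries of both groups did not overlap. Adequate libraries had 26.4, 42.7 and 35.7 CPM and supplemented ones ran from 18.9 through a median of 38 to 49.7 CPM. The log2 fold change of deficient against restricted was 0.69 (SE 0.306, 95% interval 0.04 to 1.34, adjusted p = 0.663 by edgeR). Fractions in its expected counts, present in all 15 libraries and in none for the other 9 genes, show that part of its reads were shared out between loci.

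**Figure D1:**
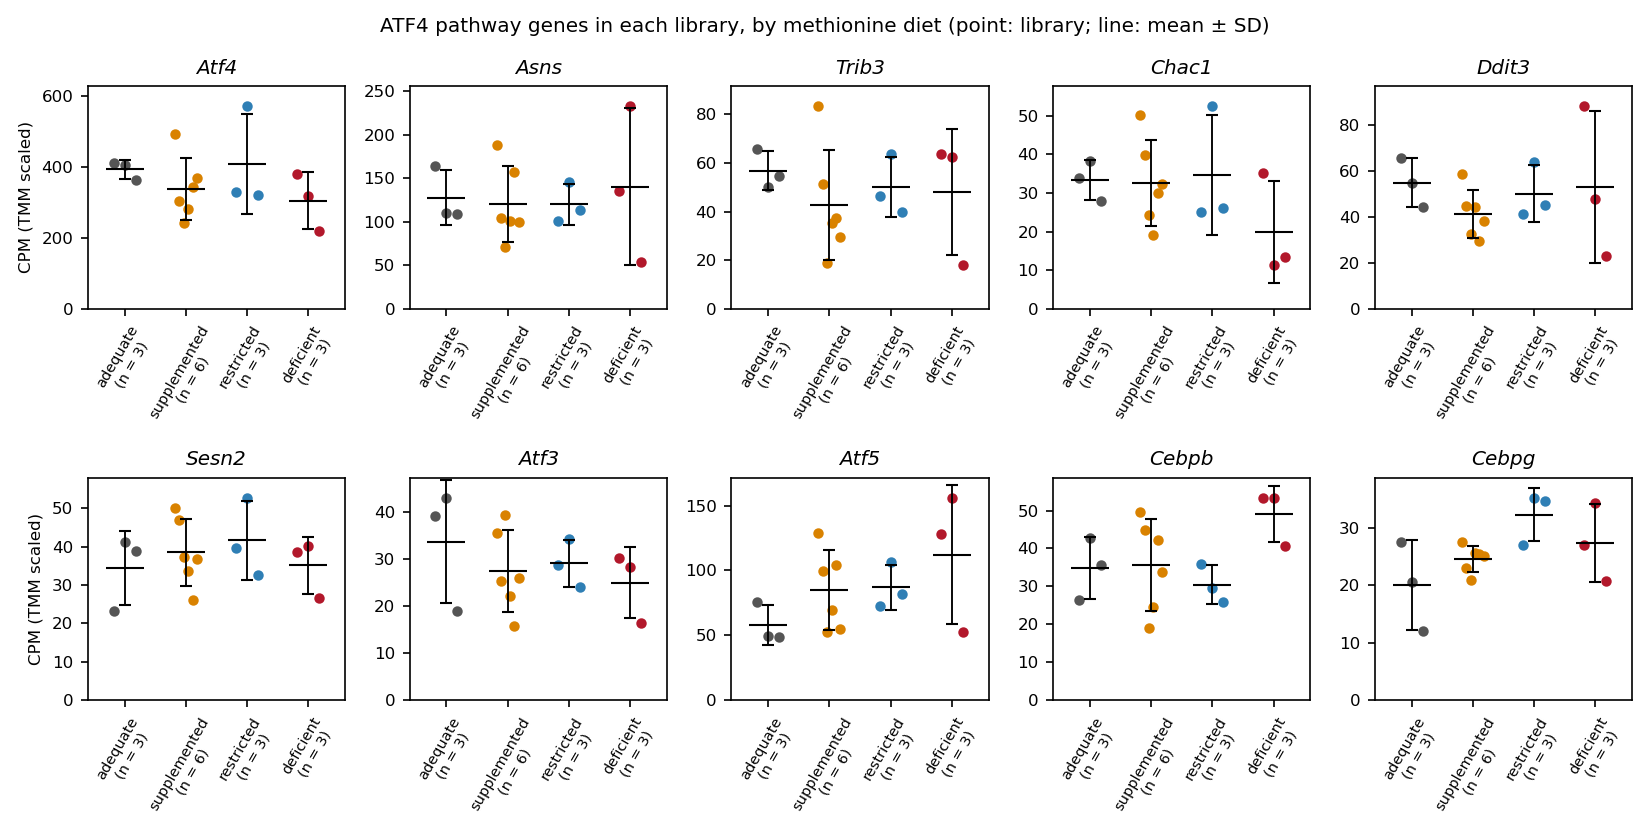
Normalised level in CPM (vertical axis, from 0, a scale of its own in each panel) of the 10 genes in each library, by diet; points are libraries, the horizontal line is the group mean and the bar 1 SD. In all panels the deficient libraries (n = 3) overlap the adequate libraries (n = 3).

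The members' counts were read beside the share of all genes tested. For deficient against adequate, 5 of 10 lay above 0 with a median log2 fold change of -0.01, beside 0.04 over all genes, of which 52.9% lay above 0. 0 of 10 passed an edgeR adjusted p of 0.05, where 0.00625% of genes passed, and 1 of 10 (Atf5, higher) had an unadjusted p under 0.05, where 15.1% of genes were (9.29% higher and 5.84% lower). The libraries did not overlap for 0 of 10, against 7.91% of genes higher and 7.96% lower. DESeq2 passed 3.67% and limma-voom 0.00625% of genes in this comparison, and again 0 of 10, with Atf5 at a DESeq2 adjusted p = 0.122.

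For restricted against adequate, 5 of 10 and 50.4% of genes lay above 0 (members' median -0.02), 0 of 10 and 0% of all genes passed edgeR, and 1 of 10 (Cebpg, higher) had an unadjusted p under 0.05 against 9.17% of genes (4.87% higher and 4.31% lower). The libraries did not overlap for 0 of 10, against 8.37% of genes higher and 8.27% lower. DESeq2 passed 0 of 10 and 0.819% of genes, limma-voom 0 of 10 and 0%. For supplemented against adequate, 4 of 10 and 52.9% of genes lay above 0 (members' median -0.06), with 0 of 10 at an unadjusted p under 0.05 against 9.77% of genes (4.85% higher and 4.92% lower). The libraries did not overlap for 0 of 10, against 2.14% of genes higher and 2.24% lower, with 0 of 10 passing edgeR (0% of genes), DESeq2 (0.856%) or limma-voom (0.0187%).

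For deficient against restricted, 4 of 10 and 51.9% of genes lay above 0 (members' median -0.14). 1 of 10, Cebpb, was higher at an unadjusted p under 0.05 (7.44% of genes, 5.16% higher and 2.28% lower) and higher without overlap (4.71% of genes, with 6.38% lower). 0 of 10 passed edgeR (0% of genes), DESeq2 (0.0562%) or limma-voom (0%). For deficient against supplemented, 6 of 10 and 52.5% of genes lay above 0 (members' median 0.16). 0 of 10 had an unadjusted p under 0.05 (5.45% of genes, 3.69% higher and 1.76% lower), 0 of 10 had libraries that did not overlap (1.01% of genes higher, 0.9% lower), and 0 of 10 passed edgeR (0%), DESeq2 (0%) or limma-voom (0%). Tested for any difference over the 4 diets at once, the members had edgeR adjusted p-values from 0.58 for Cebpg to 0.987 for Asns. Its share of genes with an adjusted p under 0.05 was 0.00625%, and 0 of 10 members had an unadjusted p under 0.05 (9.47% of genes).

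The intervals of the ratio to adequate were computed on all 15 libraries. For deficient against adequate, the 95% interval of the ratio ran from 0.592 to 2.04 for Asns, from 0.426 to 1.69 for Trib3, from 0.321 to 1.11 for Chac1 and from 0.513 to 1.17 for Atf4. Atf5 reached furthest upward, with a ratio interval of 1.1 to 3.43.

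**Figure D2:**
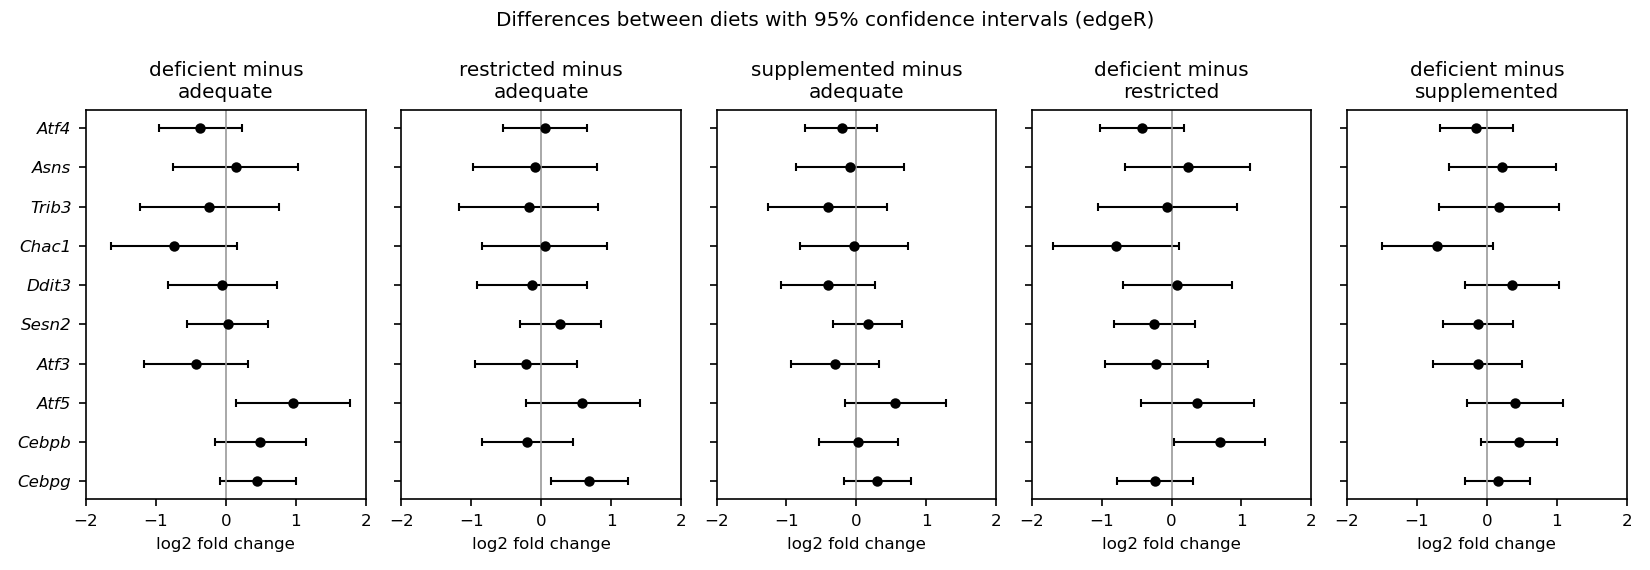
Log2 fold change (horizontal axis) of each of the 10 genes in 5 comparisons of diets; points are edgeR estimates and bars 95% confidence intervals. Intervals exclude 0 for Atf5 (deficient minus adequate), Cebpg (restricted minus adequate) and Cebpb (deficient minus restricted), none of which passed adjustment over all genes.

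For deficient against adequate, the sign of Asns, Trib3, Ddit3 and Sesn2 rested on which libraries were counted. With each library left out, the other members kept their sign. Atf4 (-0.6 to -0.17), Atf3 (-0.72 to -0.2) and Chac1 (-1.49 to -0.46) stayed below 0. Atf5 (0.65 to 1.3), Cebpb (0.31 to 0.66) and Cebpg (0.19 to 0.74) stayed above 0. Deficient replicate 3, the library richest in lung markers (alveolar type 2 list at a mean log2 CPM of 8.70, where replicates 1 and 2 of that diet had 6.33 and 4.36), had the lowest value of all 15 libraries for 4 of the 10 genes: Atf4, Asns, Trib3 and Ddit3. It also held the lowest value of 17.3% of all genes. Without it, 7 of 10 members lay above 0 against adequate in place of 5, with Asns at 0.53, Trib3 at 0.15, Ddit3 at 0.31 and Atf5 at 1.3, and 0 passed (edgeR adjusted p between 0.465 and 0.989). Trib3 and Ddit3 thereby changed sign. Without deficient replicate 2, Asns turned to -0.44 (adjusted p = 0.59). With the alveolar type 2 level as a covariate 5 of 10 lay above 0 and 0 passed. The part that lung tissue plays in the low values of deficient replicate 3 was not tested.

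The members were then read library by library. In supplemented replicate 1 and in deficient replicate 1 all 10 lay above their own mean over the 15 libraries, by 0.54 and 0.37 on the log2 scale on average, and in restricted replicate 2 it was 9 of 10, by 0.44. In deficient replicate 3 only 1 of 10, Cebpb, lay above, with an average of -0.70, and supplemented replicate 3 came next at -0.44 with 2 of 10 above. The supplemented group spanned -0.44 to 0.54 and the deficient group -0.70 to 0.37, whereas the adequate group lay between -0.20 and 0.16.

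**Figure D3:**
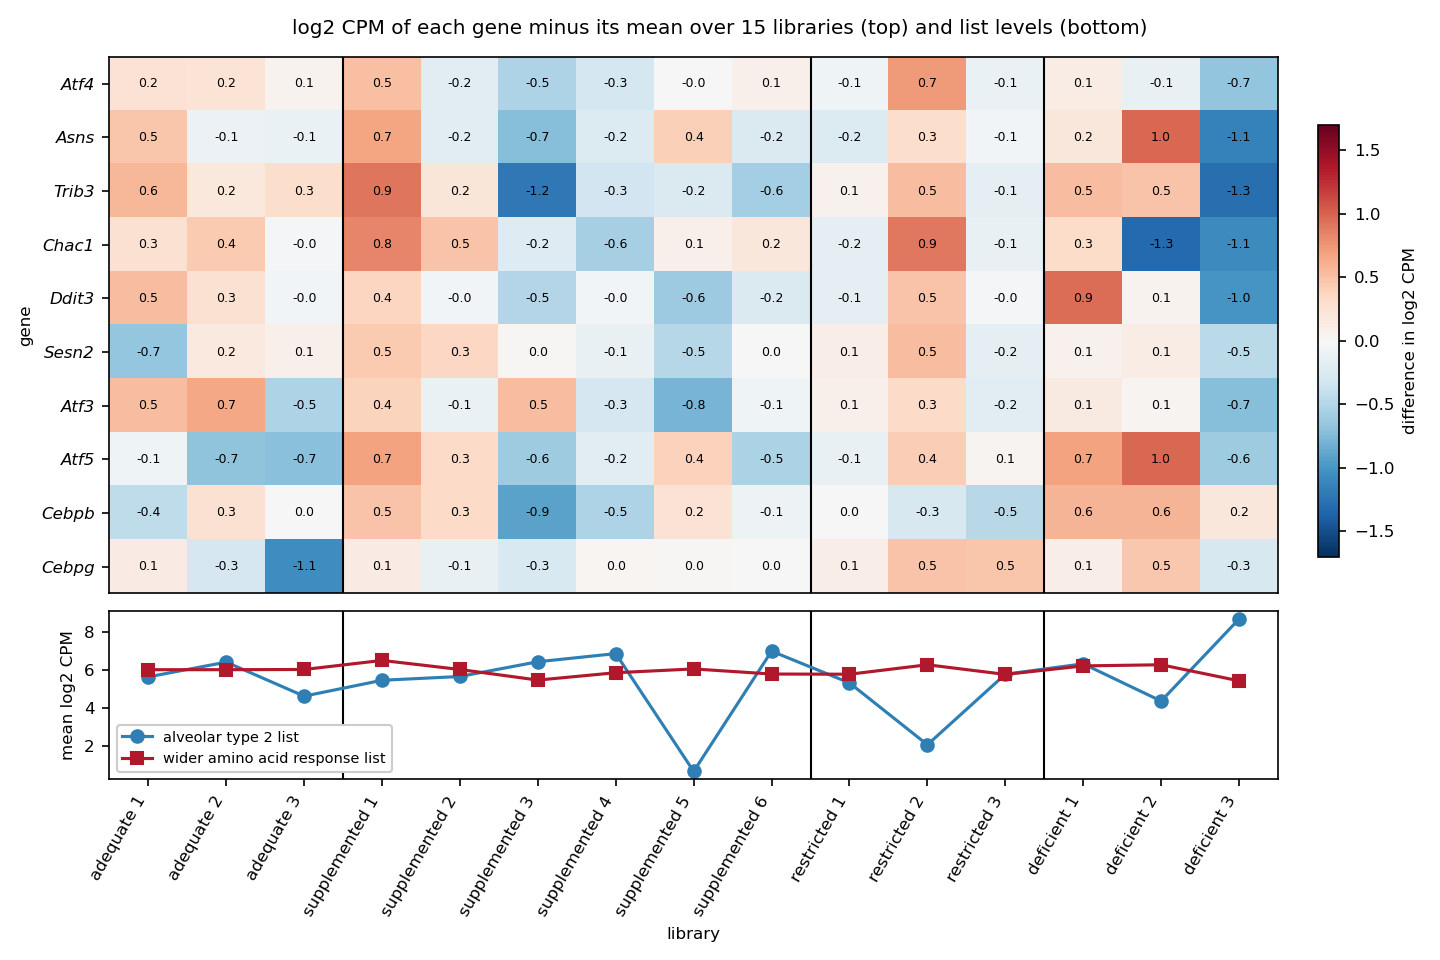
Top, log2 CPM of each of the 10 genes minus its mean over the 15 libraries, one column per library with diets parted by black lines; bottom, mean log2 CPM of the alveolar type 2 list (circles) and of the wider amino acid response list (squares). Supplemented replicate 1 and restricted replicate 2 are high and deficient replicate 3 low across most genes.

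Of the 45 pairs among the 10 genes, 44 had a positive correlation of log2 CPM over the 15 libraries (median r = 0.403). By r, 8 passed a 2-sided permutation test adjusted over the 45 pairs. The median r of a member with 9565 other genes ran from -0.001 for Cebpg to 0.128 for Trib3. The closest pair was Asns with Trib3, at r = 0.832 (permutation p = 0.00015, adjusted p = 0.00337) and rho = 0.796 (permutation p = 0.00071, adjusted p = 0.0124). Without deficient replicates 2 and 3, the libraries farthest from the median of Asns, r was 0.79, and within diets, as deviations from each diet's mean, it was 0.858. Trib3 with Ddit3 gave r = 0.828 (permutation p = 9e-05, adjusted p = 0.00337) and rho = 0.889 (permutation p = 5e-05, adjusted p = 0.00225), with r = 0.717 without supplemented replicate 3 and deficient replicate 3 and 0.808 within diets.

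By r, Atf4 passed with 4 of the other 9 genes: Trib3, Chac1, Ddit3 and Asns. With Trib3 it gave r = 0.795 (permutation p = 0.00048, adjusted p = 0.00652) and rho = 0.729 (permutation p = 0.00302, adjusted p = 0.0226), with r = 0.746 without restricted replicate 2 and deficient replicate 3 and 0.799 within diets. With Chac1 it gave r = 0.767 (permutation p = 0.00096, adjusted p = 0.00864) and rho = 0.786 (permutation p = 0.00083, adjusted p = 0.0124), and r = 0.609 without the same libraries and 0.776 within diets. Atf4 with Ddit3 gave r = 0.728 (permutation p = 0.00247, adjusted p = 0.0185) and rho = 0.704 (permutation p = 0.00494, adjusted p = 0.0308). Atf4 with Asns gave r = 0.666 (permutation p = 0.00757, adjusted p = 0.0426) and rho = 0.593 (permutation p = 0.023, adjusted p = 0.0863), and did not pass by rho. Both pairs were looser, at r = 0.582 and 0.554 without restricted replicate 2 and deficient replicate 3. Within diets these 2 pairs had r = 0.745 and 0.724. Atf4 did not pass with Atf3 or Sesn2 (r = 0.454 for both, adjusted permutation p = 0.215), with Atf5 (r = 0.377, adjusted permutation p = 0.285), with Cebpg (r = 0.284, adjusted permutation p = 0.449) or with Cebpb (r = 0.22, adjusted permutation p = 0.54).

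Atf5 followed Asns, at r = 0.769 (permutation p = 0.00058, adjusted p = 0.00652) and rho = 0.736 (permutation p = 0.00251, adjusted p = 0.0226), with r = 0.69 without deficient replicates 2 and 3 and 0.932 within diets. It also followed Cebpg (r = 0.673, permutation p = 0.00318, adjusted p = 0.0204; rho = 0.757, permutation p = 0.00169), with r = 0.633 without supplemented replicate 1 and deficient replicate 2 and 0.624 within diets. Asns with Ddit3 passed by rho (0.686, adjusted permutation p = 0.0308) but not by r (0.61, adjusted permutation p = 0.067). No pair with Sesn2, Atf3 or Cebpb passed. All pairs share library depth and tumour content, which differ between libraries.

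**Figure D4:**
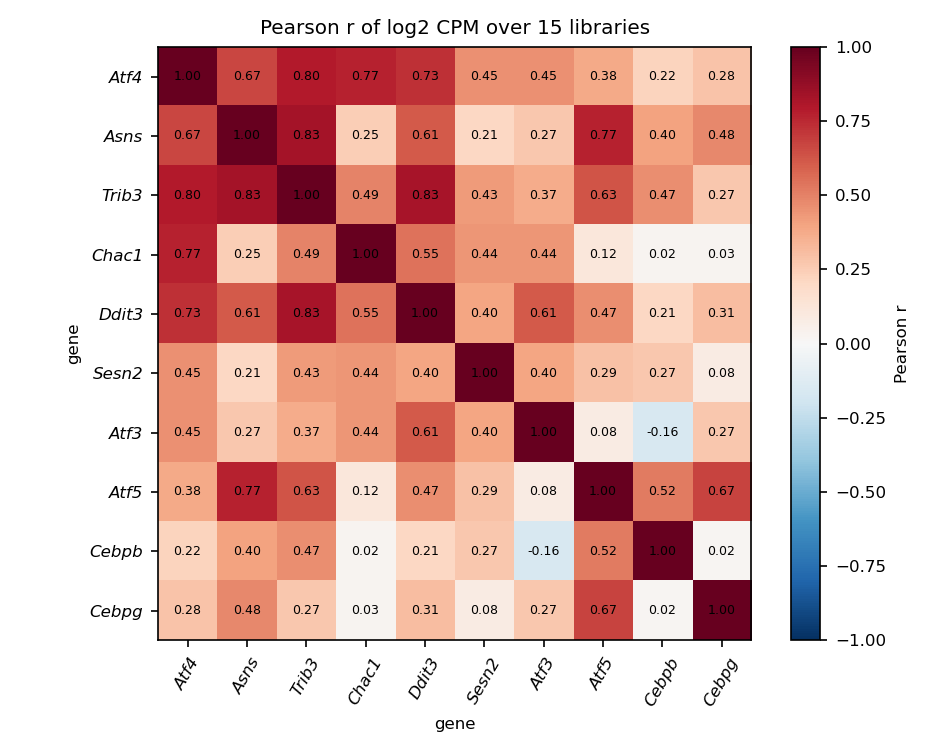
Pearson correlation of log2 CPM over the 15 libraries for every pair of the 10 genes (rows and columns; colour and number give r). The block of Atf4, Asns, Trib3 and Ddit3 lies between 0.61 and 0.83, and Asns with Chac1 stands at 0.25.

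Asns and Chac1, both targets of ATF4 with a match to the response element, came apart in a single library. In deficient replicate 2 Asns had its highest value, 233 CPM, and Chac1 its lowest, 11.3 CPM. The ratio of Asns to Chac1 in CPM was 20.6 there and 2.61 to 5.29 in the other 14 libraries. Over all libraries the pair had r = 0.247 (permutation p = 0.373, adjusted p = 0.479) and rho = 0.361 (permutation p = 0.185), and r = 0.615 without deficient replicates 2 and 3. Atf5, at 156 CPM, was also highest in deficient replicate 2, while Trib3, at 62.3 CPM, was not. The split is that of 1 library and was not seen in the other 2 deficient ones.

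**Figure D5:**
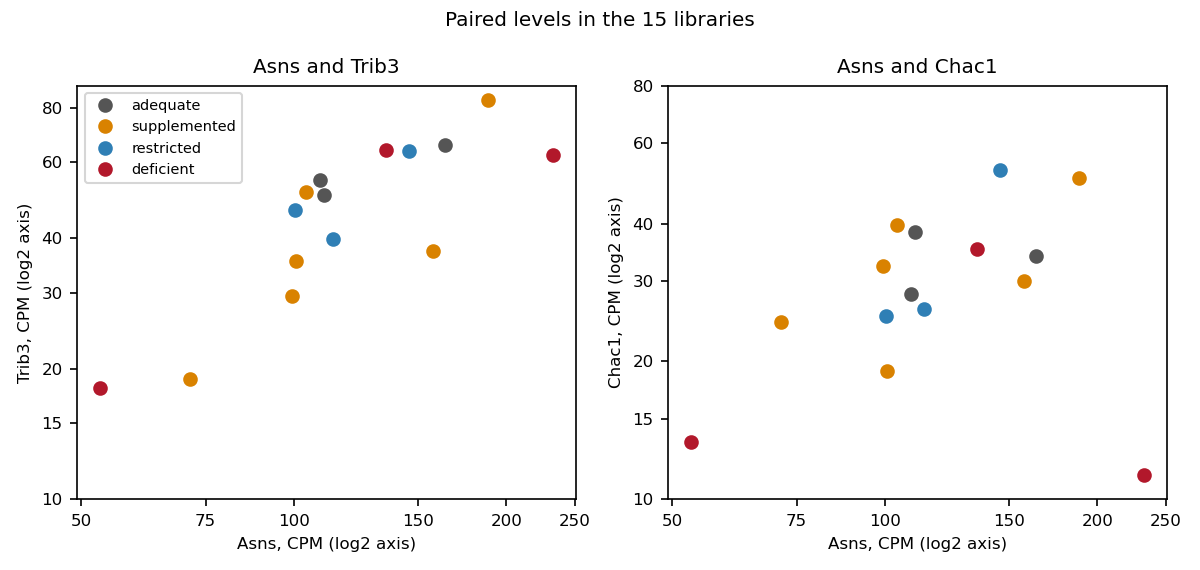
Levels of Trib3 (left) and Chac1 (right) against Asns in CPM on log2 axes; each point is a library, coloured by diet. Deficient replicate 2, at 233 CPM of Asns, lies at the high end of both axes for Trib3, and for Chac1, at 11.3 CPM, beside the level of deficient replicate 3, which had the lowest Asns.

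The genes most like each member were sought by Pearson r of log2 CPM over the 15 libraries among 9565 other genes that had a symbol and averaged 3 or more on the log2 CPM scale, as a description. For Asns they were Sars (r = 0.956), Mthfd2 (r = 0.945), Abce1 (r = 0.934), Eif4ebp1 (r = 0.933) and Cyb5r1 (r = 0.923). Sars (now Sars1) charges serine tRNA, Mthfd2 is an enzyme of mitochondrial folate metabolism, Abce1 recycles ribosomes and Eif4ebp1 restrains cap-dependent translation. For Trib3 they were Sars (r = 0.916), Lrrc40 (r = 0.9), Xpot (r = 0.89), Eif4ebp1 (r = 0.886) and Plpp2 (r = 0.884), where Xpot exports tRNA from the nucleus. For Atf4 itself they were Apba3 (r = 0.895), Plpp2 (r = 0.885), Dda1 (r = 0.882), Slc19a1 (r = 0.866) and Helb (r = 0.863), none of them in the list of other amino acid response genes, and Slc19a1 is the reduced folate carrier. For Atf3 they were Card19 (r = 0.871), Fau (r = 0.863), Shisa4 (r = 0.84), Etfrf1 (r = 0.834) and Tspan3 (r = 0.815), of which none is in that list.

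That list holds 45 other genes of the response, of which 44 were tested and 41 entered this comparison, or 0.429% of the genes compared. Among the 100 genes most like each member, a count added after the data were seen, 16 were from the list for Trib3, 14 for Asns, 13 for Atf5, 12 for Atf4 and 9 for Ddit3. The count was 4 for Sesn2, 3 for Chac1, 1 each for Atf3 and Cebpb and 0 for Cebpg. Trib3 shared with Asns the serine synthesis genes Phgdh, Psat1 and Psph and the mitochondrial folate genes Shmt2 and Mthfd2. Of these genes, Psat1, Psph, Shmt2 and Mthfd2 were also among those most like Atf5. Phgdh, Psat1 and Shmt2 were among those most like Atf4. Atf5 stood beside the tRNA synthetase genes Eprs, Lars, Yars, Aars, Sars and Nars and the proline synthesis genes Pycr1 and Aldh18a1. It shared Sars and Aldh18a1 with Asns, Trib3 and Ddit3, and Eprs with Asns. Chac1 stood beside Slc7a11, the cystine importer, Tars and Gdf15, a secreted stress factor.

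The level of the other amino acid response genes, as the mean log2 CPM of the 44, went with Trib3 over the libraries (r = 0.918 with permutation p = 1e-05 and adjusted p = 0.0017, rho = 0.804 with permutation p = 0.0005 and adjusted p = 0.0283), with r = 0.826 without supplemented replicate 3 and deficient replicate 3 and 0.96 within diets. It did so with Asns (r = 0.882 with permutation p = 6e-05 and adjusted p = 0.0051, rho = 0.829 with permutation p = 0.00034 and adjusted p = 0.0283), with r = 0.772 without the same libraries and 0.882 within diets. Of the 10 members 4 passed, the others being Atf4 (r = 0.793 with permutation p = 0.00049 and adjusted p = 0.0197, rho = 0.6 with permutation p = 0.0201 and adjusted p = 0.163) and Atf5 (r = 0.739 with permutation p = 0.00157 and adjusted p = 0.0334, rho = 0.704 with permutation p = 0.00452 and adjusted p = 0.108), whose r was 0.606 and 0.679 without those libraries and 0.884 and 0.902 within diets. The remaining 6 did not pass: Ddit3 (r = 0.718, adjusted permutation p = 0.0501), Cebpb (r = 0.571), Sesn2 (r = 0.49), Chac1 (r = 0.477), Cebpg (r = 0.3) and Atf3 (r = 0.268). These p-values are adjusted over 170 relations of the 10 genes with 17 lists, and 1e-05 is the smallest that the permutations can give. Of the 44 genes, 20 had their highest value of all 15 libraries in supplemented replicate 1, which held the highest value of 3.48% of all genes. A further 9 had it in deficient replicate 2 (5.2% of all genes). Their lowest value fell in deficient replicate 3 for 20 of 44 (17.3% of all genes) and in supplemented replicate 3 for 8 (6.91%).

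By diet, these 44 genes showed no shared direction. For deficient against adequate 19 of 44 lay above 0 with a median log2 fold change of -0.04, and for restricted against adequate 26 of 44 with a median of 0.06. The medians were 0.01 for supplemented against adequate (23 of 44 above 0), 0.00 for deficient against restricted (21 of 44) and -0.02 for deficient against supplemented (20 of 44). Over all genes the medians were, in the same order, 0.04, 0, 0.03, 0.02 and 0.02. The shares of all genes above 0 were 52.9%, 50.4%, 52.9%, 51.9% and 52.5%. In none of the 5 comparisons did a gene of the list pass edgeR, DESeq2 or limma-voom. Of all genes, 0% to 0.00625% passed edgeR in a comparison, 0% to 3.67% DESeq2 and 0% to 0.0187% limma-voom. At an unadjusted edgeR p under 0.05 there were 2 higher and 0 lower for deficient against adequate, 0 and 3 for restricted, 0 and 1 for supplemented, 1 and 1 for deficient against restricted and 2 and 1 for deficient against supplemented. Over all genes the shares higher and lower were, in the same order, 9.29% and 5.84%, 4.87% and 4.31%, 4.85% and 4.92%, 5.16% and 2.28%, and 3.69% and 1.76%.

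The genes with the smallest p for deficient against adequate were Slc7a3, a carrier of cationic amino acids, with a log2 difference of 2.66 (SE 1.14, adjusted p = 0.286 by edgeR), Eprs, which charges glutamate and proline tRNA, at 0.62 (SE 0.291, adjusted p = 0.329 by edgeR), and Cars, the cysteine tRNA synthetase, at -0.50 (SE 0.255, adjusted p = 0.367 by edgeR). For restricted against adequate they were Vldlr, a lipoprotein receptor, at -2.22 (SE 0.746, adjusted p = 0.407 by edgeR), Ppp1r15a, which encodes the GADD34 subunit that removes phosphate from eIF2alpha, at -0.74 (SE 0.28, adjusted p = 0.449 by edgeR), and Cth, cystathionine gamma-lyase of the route from methionine to cysteine, at -1.24 (SE 0.557, adjusted p = 0.517 by edgeR). For supplemented against adequate they were Nupr1 at -0.42 (SE 0.191, adjusted p = 0.506 by edgeR), Lars, the leucine tRNA synthetase, at 0.52 (SE 0.249, adjusted p = 0.515 by edgeR), and the glycine transporter gene Slc6a9 at 0.43 (SE 0.249, adjusted p = 0.601 by edgeR). For deficient against restricted they were Vldlr at 2.88 (SE 0.761, adjusted p = 0.649 by edgeR), Slc38a2, which encodes the amino acid transporter SNAT2, at -0.52 (SE 0.212, adjusted p = 0.649 by edgeR), and Mars, the methionine tRNA synthetase, at -0.42 (SE 0.226, adjusted p = 0.711 by edgeR). For deficient against supplemented they were Slc7a3 at 2.23 (SE 0.892, adjusted p = 0.87 by edgeR), Nupr1 at 0.45 (SE 0.19, adjusted p = 0.87 by edgeR) and Slc38a2 at -0.42 (SE 0.186, adjusted p = 0.87 by edgeR).

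Inputs to ATF4 and a neighbouring stress branch were read alongside. Of 9 genes for eIF2alpha, its kinases and its regulators, 0 passed edgeR, DESeq2 or limma-voom in any of the 5 comparisons, with median log2 fold changes of -0.09, -0.01, 0.01, 0.07 and -0.08 in the order deficient, restricted and supplemented against adequate, then deficient against restricted and against supplemented. Of all genes, between 0% and 0.00625% passed edgeR in a comparison, 0% to 3.67% DESeq2 and 0% to 0.0187% limma-voom. With shares this small, 0 of a short list says little about its genes. Eif2ak2 encodes the RNA-sensing kinase PKR, which interferon raises, Eif2ak1, Eif2ak3 and Eif2ak4 encode HRI, PERK and GCN2, Impact encodes a restraint on GCN2, Eif2s1 encodes eIF2alpha and Ppp1r15b a subunit that removes its phosphate. The 3 genes with the smallest p, with their log2 fold changes, were Eif2ak2 (0.33), Impact (0.45) and Eif2ak3 (-0.40) for deficient against adequate, and Eif2ak2 (0.57), Eif2s1 (-0.68) and Eif2ak3 (-0.47) for restricted against adequate. In the remaining comparisons they were Impact (0.67), Eif2ak2 (0.36) and Eif2s1 (-0.40) for supplemented against adequate, Eif2ak2 (-0.24), Impact (0.32) and Eif2ak4 (0.20) for deficient against restricted, and Ppp1r15b (-0.24), Impact (-0.22) and Eif2ak1 (-0.15) for deficient against supplemented. Their edgeR adjusted p-values lay between 0.376 and 0.949.

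Of 16 endoplasmic reticulum chaperone and XBP1 target genes 0 passed edgeR, DESeq2 or limma-voom in any of the 5, with medians of 0.01, 0.21, 0.04, -0.09 and -0.01 in the same order. The shares of all genes that passed are those given for the eIF2alpha list, so this too says little about the list. Hyou1, Hsp90b1, Dnajb9, Dnajc3 and Sdf2l1 encode chaperones or their partners, Pdia4 and Pdia6 disulfide isomerases, and Herpud1 and Edem1 act in the disposal of misfolded proteins. Those with the smallest p here were Hyou1 (0.46), Herpud1 (-0.38) and Pdia4 (0.25) for deficient against adequate, and Hyou1 (0.70), Hsp90b1 (0.45) and Pdia4 (0.45) for restricted against adequate. In the remaining comparisons they were Hyou1 (0.45), Herpud1 (-0.41) and Edem1 (0.19) for supplemented against adequate, Hsp90b1 (-0.41), Dnajc3 (-0.33) and Sdf2l1 (-0.51) for deficient against restricted, and Dnajb9 (0.38), Sdf2l1 (-0.20) and Pdia6 (-0.13) for deficient against supplemented. Their edgeR adjusted p-values lay between 0.343 and 0.979. With the level of this list the 10 members all correlated positively (r from 0.054 to 0.647), and 0 of the 10 relations passed the adjusted permutation test. At an unadjusted edgeR p under 0.05 the eIF2alpha list had 0, 2, 2, 0 and 0 genes and the chaperone list 0, 1, 1, 0 and 0. All were higher but 1 of the eIF2alpha list, lower for restricted against adequate. The shares of all genes were 15.1%, 9.17%, 9.77%, 7.44% and 5.45% in the same order.

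Since Atf3 is also an immediate early gene, 16 such genes were read too. Atf3 had r = 0.069 with their level (permutation p = 0.81, adjusted p = 0.902) and rho = 0.129 (permutation p = 0.647), with 0.069 without adequate replicate 1 and supplemented replicate 5 and 0.198 within diets. None of the 16 passed edgeR, DESeq2 or limma-voom in the 5 comparisons, where few of all genes passed, as given for the eIF2alpha list. Their medians were 0.27, -0.03, 0.16, 0.25 and 0.13. At an unadjusted edgeR p under 0.05 there were 3, 2, 2, 2 and 1, of which 2, 0, 1, 2 and 1 were higher. The shares of all genes were 15.1%, 9.17%, 9.77%, 7.44% and 5.45%. The smallest p belonged to Ier2 (-0.72), Jun (0.83) and Btg2 (1.14) for deficient against adequate, and Klf6 (-0.52), Ier2 (-0.50) and Jun (0.56) for restricted against adequate. In the remaining comparisons they were Klf6 (-0.48), Jun (0.62) and Ier2 (-0.36) for supplemented against adequate, Btg2 (1.32), Klf4 (1.12) and Dusp1 (0.69) for deficient against restricted, and Btg2 (0.99), Ier2 (-0.36) and Junb (0.33) for deficient against supplemented. Their edgeR adjusted p-values lay between 0.191 and 0.885. In deficient libraries Btg2 stood at 20.1, 21.4 and 80.1 CPM, Klf4 at 15.9, 20.9 and 41.7 CPM and Dusp1 at 22.5, 22.1 and 59.3 CPM. Each of these genes had its highest value of all libraries in deficient replicate 3, the library richest in lung markers. The part that lung tissue plays in these differences was not tested.

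Of the relations between the members and the lists of other cell types, 4 passed, all negative: Trib3 and Asns with the endothelial list, and Trib3 and Atf4 with the lymphocyte list. Trib3 ran against the endothelial list (r = -0.746 with permutation p = 0.00135 and adjusted p = 0.0328, rho = -0.657 with permutation p = 0.00956 and adjusted p = 0.108) and the lymphocyte list (r = -0.805 with permutation p = 0.00032 and adjusted p = 0.0181, rho = -0.696 with permutation p = 0.00521 and adjusted p = 0.108). Without the 2 libraries farthest from the median of the list its r was -0.533 and -0.605, and within diets -0.788 and -0.872. Asns ran against the endothelial list (r = -0.789 with permutation p = 0.00058 and adjusted p = 0.0197, rho = -0.804 with permutation p = 0.00043 and adjusted p = 0.0283), with r = -0.635 without supplemented replicate 6 and deficient replicate 3 and -0.912 within diets. Atf4 ran against the lymphocyte list (r = -0.762 with permutation p = 0.00073 and adjusted p = 0.0207, rho = -0.675 with permutation p = 0.00703 and adjusted p = 0.108), with r = -0.552 without supplemented replicate 3 and deficient replicate 3 and -0.706 within diets. With the alveolar type 2 list, 9 of 10 members had a negative r, the lowest for Asns (r = -0.609 with permutation p = 0.0171 and adjusted p = 0.121, rho = -0.696 with permutation p = 0.0054 and adjusted p = 0.108, r = -0.741 without supplemented replicate 5 and restricted replicate 2 and -0.657 within diets), and none passed.

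The list levels, as mean log2 CPM, ran from 3.81 to 4.29 in adequate, 3.54 to 5.41 in supplemented, 4.09 to 4.84 in restricted, 4.27 to 7.23 in deficient libraries for the 12 endothelial genes. For the 11 of 12 lymphocyte genes that were tested they ran from -1.64 to -1.06 in adequate, -1.7 to 0.57 in supplemented, -1.92 to -0.05 in restricted, -0.83 to 1.85 in deficient libraries, and for 12 alveolar type 2 genes from 4.62 to 6.42 in adequate, 0.64 to 7 in supplemented, 2.05 to 5.78 in restricted, 4.36 to 8.7 in deficient libraries. The lymphocyte levels were negative in all adequate and restricted libraries. They were also negative in supplemented replicates 1, 2 and 5 (-1.7, -1.29 and -1.01) and in deficient replicate 2 (-0.83). Counts were low in all of these and the prior count of 2 weighed more, which limits the 2 lymphocyte relations that passed. The remaining lists, for alveolar type 1, airway, fibroblast, macrophage, neutrophil, muscle, erythroid, melanocyte, mitosis and small structural RNA genes, had r between -0.701 and 0.622 with the members, and none of these relations passed. A negative relation was not confined to the endothelial and lymphocyte lists. With the fibroblast list, Atf4, Asns and Trib3 had r = -0.701, -0.527 and -0.645 (adjusted permutation p = 0.0652, 0.235 and 0.0971). Their r was -0.808, -0.817 and -0.828 within diets, and -0.572, -0.143 and -0.405 without adequate replicate 1 and deficient replicate 3. Of the 10 members, 3 had a positive r with that list. The members' relation to the melanocyte list, the tumour's own genes, was between -0.256 and 0.437. What these other cells contribute to the members' levels was not tested.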

How the data were processed

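Per the file headers, the deposited tables hold expected counts (estimated read numbers per gene) and TPM from RSEM. The submitters' processing notes name RSEM 1.30, Bowtie2 2.2.9, edgeR and build NCBIM37; for the strand setting and annotation release, nothing is given in the sources used here. Expected counts were rounded. Symbols came from a table that named 32897 IDs. edgeR's filterByExpr and TMM were applied, and edgeR 4.0.16 quasi-likelihood tests (R 4.3.3) fitted 1 mean per diet to all 15 libraries, with 11 residual degrees of freedom and Benjamini-Hochberg adjustment over 16001 genes. CPM is scaled by TMM, with a prior count of 2 before logs were taken. DESeq2 1.42.0, limma-voom (limma 3.58.1), other scalings, filters and left-out libraries were alternatives. Correlation tests used 100000 resamples. The edgeR test of deficient against adequate and the correlation test were tried on simulated data, the other steps were not. Chi-square per degree of freedom between the 24 within-group library pairs was at least 27.4, above counting noise, so no pair was 1 library deposited again. This says nothing on repeat preparations from 1 mouse.

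The 10 genes and the 17 lists were chosen with earlier results of these data known. Named are all 10 members, the 3 genes with the smallest p per comparison in 4 stress lists, and the 5 genes most like Atf4, Asns, Trib3 and Atf3. Promoter sequences are RefSeq's, of build GRCm38.p6, and no other coordinates are printed.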

Additional observations from a re-analysis of the deposited data

How the results depend on the processing

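No member passed under any alternative run: in 710 refits of a member's difference (50 differences, each under every alternative that applies), 0 passed an adjusted p of 0.05 and 651 kept their sign. Counts over all genes changed: for deficient against adequate edgeR gave 1 gene, 0 with no filter, with the lung covariate or with the 2 groups alone, 5 without the 3 libraries that stand apart, 0 to 4 with each library left out, and DESeq2 588. For restricted against adequate 0 became 49 with the lung covariate, 66 without the 3 libraries, 0 to 5 with each left out and 131 by DESeq2. For supplemented against adequate it became 2 without the 3 libraries, 3 by limma-voom and 137 by DESeq2, and for deficient against restricted 9 by DESeq2. For any difference among the diets 1 became 8 with no filter, 2 with the lung covariate, 3 without the 3 libraries, 0 to 2 with each left out, 0 by limma-voom and 270 by DESeq2. The causes were not tested.

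Signs changed, none past the threshold, with the lung covariate: Atf4 -0.08, Chac1 -0.07 (restricted against adequate), Cebpb 0 (supplemented against adequate), Trib3 0.19 (deficient against restricted). Without the 3 libraries they changed for Trib3 0.26, Ddit3 0.45, Sesn2 -0.03 (deficient against adequate), Asns 0.10 (restricted against adequate), Asns 0.03, Cebpb -0.20 (supplemented against adequate), Trib3 0.35, Atf3 0.03 (deficient against restricted), Atf4 0.05 (deficient against supplemented). By limma-voom they changed for Asns -0.09 (deficient against adequate), Atf4 0, Chac1 -0.01 (restricted against adequate), Cebpb -0.02 (supplemented against adequate), Asns 0, Ddit3 -0.07 (deficient against restricted). With each library left out, differences that changed sign ranged as follows: for deficient against adequate Asns -0.44 to 0.53, Ddit3 -0.68 to 0.31, Sesn2 -0.20 to 0.19, Trib3 -0.53 to 0.15. For restricted against adequate Asns -0.28 to 0.11, Atf3 -0.50 to 0.00, Atf4 -0.30 to 0.20, Chac1 -0.41 to 0.24. For supplemented against adequate Asns -0.26 to 0.12, Cebpb -0.15 to 0.20, Chac1 -0.20 to 0.08, Sesn2 -0.07 to 0.31. For deficient against restricted Asns -0.35 to 0.62, Atf3 -0.37 to 0.01, Ddit3 -0.50 to 0.44, Trib3 -0.30 to 0.33. For deficient against supplemented Asns -0.35 to 0.61, Atf3 -0.30 to 0.10, Atf4 -0.35 to 0.04, Cebpg -0.04 to 0.32, Ddit3 -0.23 to 0.72, Sesn2 -0.24 to 0.03, Trib3 -0.08 to 0.56. No paired analysis was possible because the labels give no replicate numbers that diets share. The replicate numbers used here were given in accession order within each diet and only name a library. Groups of 3 limit the precision: for deficient against adequate the interval of Trib3 spans a ratio of 0.426 to 1.69.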

Other observations

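Among the stress-list genes with the smallest p, 3 are given by library, chosen after their values were seen. Slc7a3, a carrier of cationic amino acids, stood at 0.636, 7.83 and 0.946 CPM in deficient libraries, 0.504, 0.602 and 0.364 CPM in adequate and 0.0553, 1.67 and 0.986 CPM in restricted libraries, and ran from 0.217 to 1.56 CPM in supplemented ones. Its high value lay in deficient replicate 2, the library with the highest Asns and Atf5. Vldlr, a lipoprotein receptor, stood at 1.44, 0.858 and 1.85 CPM in restricted libraries, below every library of the adequate (3.46, 10.6 and 5.14 CPM) and deficient (2.44, 6.92 and 21.3 CPM) groups, and ran from 2.42 to 9.79 CPM in supplemented ones. Its highest value was in deficient replicate 3, the library richest in lung markers. Klf6, an immediate early zinc finger factor, stood at 172, 172 and 161 CPM in adequate libraries, above every one of the restricted (128, 118 and 106 CPM), deficient (136, 147 and 141 CPM) and supplemented (from 83.5 to 136 CPM) libraries. Its log2 fold change was -0.48 (SE 0.153, adjusted p = 0.355 by edgeR) for supplemented and -0.52 (SE 0.181, adjusted p = 0.411 by edgeR) for restricted against adequate. Of all genes, 8.27% were lower without overlap in restricted, 7.96% in deficient and 2.24% in supplemented against adequate libraries. For deficient against restricted, 4.71% were higher without overlap, as Vldlr was.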
